A study of Mus musculus with 4 samples.

Results

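The genes described here are 10 members of the EGFR family signalling system, followed in MLE-12, a transformed cell line of mouse lung alveolar epithelium. They comprise the receptor genes Egfr, Erbb2 and Erbb3, the ligand genes Hbegf, Btc, Tgfa, Areg and Nrg1, and the inhibitor genes Errfi1 and Lrig1. The 10 genes were picked by name out of 46078 counted genes, by a rule that sets no threshold on a measured value, although earlier results of these data were known. All 10 reached at least 1 CPM (counts scaled to a common library total) in at least 1 library, as did 12348 genes in all. Areg passed that filter narrowly, with a highest level of 1.49 CPM.

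Both genotypes, wild type and Lingo1 KO, were sampled without a wound and at 24 hours after a scratch, which gave 4 conditions with 1 library each. MLE-12 cells carry a viral oncogene driven by a surfactant protein C promoter, a background that both genotypes share. How the knockout was made, and whether it is a single clone, is not given in the sources used here. No difference between conditions has a replicate check: intervals cover counting error only, and genotype cannot be told apart from whatever else differs between the cultures. The labels give no harvest time for the unscratched cultures, so scratch cannot be told apart from time in culture. The column letter for the scratched cells was matched by name, and the remaining letter was taken to mean unscratched, the only other state in the labels. The column code other than wild type was likewise taken to mean Lingo1 KO, the only other genotype in the labels.

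The libraries held 26903429, 27907279, 29533746 and 48333801 counts, in the order wild type unscratched, wild type scratched, labelled knockout unscratched and labelled knockout scratched, and this order is kept for every set of 4 values below. Lingo1, the targeted gene, stood at 46.4, 42.9, 41.2 and 41.4 CPM, so its mRNA was not depleted in the libraries labelled knockout. Its log2 genotype difference was -0.11 ± 0.06 (SE), with an adjusted p of 0.217 in edgeR's quasi-likelihood test. Every direction given below for genotype rests only on the labels and on how the columns were matched to them. Of 11 alveolar type 2 markers, 7 were tested, Sftpa1 and Sftpd had no count in any library, and the summed level of the list was 554, 509, 655 and 612 CPM. Abca3, Nkx2-1 and Lpcat1 made up most of that sum, while the surfactant genes Sftpb, at 25.4, 22.9, 107 and 93.5 CPM, and Sftpc, at 5.68, 6.42, 20.6 and 19.8 CPM, rose with genotype by 2.05 ± 0.06 and 1.74 ± 0.10 on the log2 scale. Etv5 was also higher in both libraries labelled knockout, at 39.1, 36.2, 56.6 and 44.0 CPM. Nkx2-1 was not, at 163, 128, 137 and 132 CPM, nor was Napsa, at 1.48, 1.90, 1.28 and 1.17 CPM. Abca3 stood at 175, 165, 185 and 176 CPM and Lpcat1 at 144, 148, 147 and 145 CPM. The 7 epithelial markers summed to 2302, 2374, 2182 and 2344 CPM. Krt19 gave 1263, 1251, 1135 and 1233 CPM of that sum and Cdh1 gave 787, 859, 712 and 775 CPM. Krt8 rose with genotype, at 247, 258, 328 and 331 CPM (log2 difference 0.38 ± 0.06). Krt18 stayed at or below 0.287 CPM and Cldn4 was at 0 throughout. The 9 fibroblast markers summed to 2869, 2838, 2913 and 2663 CPM, nearly all of it Dcn, and Col1a1 within that list stood at 21.3, 16.5, 197 and 177 CPM. Pdgfra stood at 1.29, 1.15, 2.30 and 1.94 CPM, and Pdgfrb at 0, 0.0358, 2.26 and 2.82 CPM. Thy1 stood at 0.849, 0.932, 0.743 and 0.209 CPM. Col1a2 stayed at or below 0.0338 CPM, Col3a1 at or below 0.203 CPM and Lum at or below 0.0717 CPM. Tcf21 was at 0 in every library. Of 5 endothelial markers, Cdh5 and Emcn were at 0 in all 4 libraries and Tek alone gave nearly all of the summed 219, 208, 213 and 179 CPM. Among the leukocyte markers, Ptprc was at 0 in every library and Cd68 gave most of the summed 1.77, 2.04, 1.86 and 1.69 CPM. The part of these marker differences in the results below was not tested.

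EGFR, ERBB2, ERBB3 and ERBB4 are receptor tyrosine kinases that act as dimers. EGFR binds EGF-like ligands such as TGF-alpha, amphiregulin, betacellulin and HB-EGF, ERBB3 and ERBB4 bind neuregulins, and ERBB2 has no known ligand of its own and serves as a dimer partner. The ligands are made as membrane-bound precursors that ADAM proteases cut free, and in lung epithelium this signalling is known for its role in spreading, migration and repair after injury. ERRFI1 (also called MIG6) binds and inhibits the EGFR kinase and is induced by the signal it restrains, while LRIG1 promotes the degradation of the receptors.

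Levels between genes were compared per length, as RPKM (reads per length of gene and per size of library). The lengths implied by the authors' RPKM differed from annotated exonic lengths for some genes. They were 2892 against 4834 bases for Hbegf, 4029 against 4520 for Btc, 5849 against 10351 for Nrg1 and 4764 against 11275 for Egf. Ratios, ranks and shares between genes depend on these lengths, which the counting intervals do not cover. Erbb2 was the highest of the 10 genes in every library, at 46.0, 42.9, 44.0 and 41.5 RPKM. Its level lay above that of 87.5% to 89.1% of the genes in the authors' RPKM table. Erbb3, a receptor whose own kinase is weak and which signals through its partner, followed among the receptors at 12.2, 11.6, 12.6 and 11.6 RPKM. Egfr, the family's founding receptor, stood far lower, at 0.959, 0.930, 1.03 and 0.967 RPKM, from 264, 265, 310 and 475 counts. Per length, the Erbb2 message therefore exceeded the Egfr message 47.9-fold (95% counting interval 42.4 to 54.4) in wild-type unscratched cells and 42.8-fold (38.2 to 48.1) in unscratched cells labelled knockout. Of the summed RPKM of the 3 receptors, Erbb2 made up 77.7%, 77.4%, 76.3% and 76.7%, and Egfr 1.62%, 1.68%, 1.78% and 1.79%. Erbb4, the remaining receptor of the family, had 0, 1, 0 and 1 counts, at or below a floor of 3 counts that corresponds to between 0.0626 and 0.111 CPM. The receptor messages of these cells were thus nearly all Erbb2 and Erbb3, in the same proportions in all 4 libraries to within 2 percentage points.

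**Figure D1:**
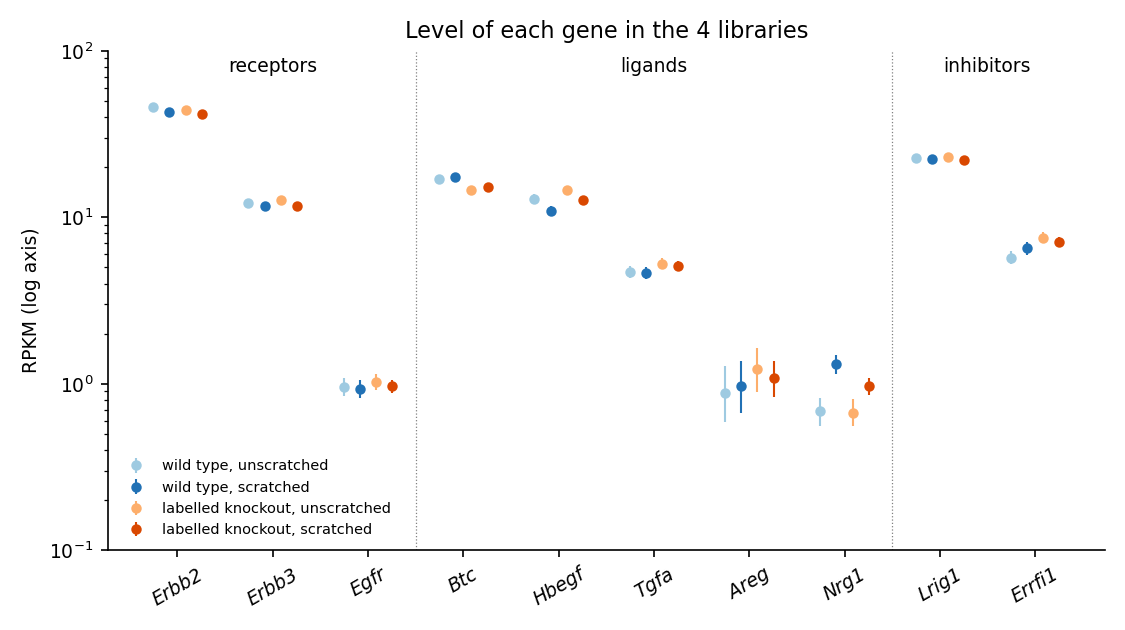
Level of each gene (RPKM, log axis) in the 4 libraries, grouped into receptors, ligands and inhibitors. Points are single libraries and bars are 95% counting intervals. Erbb2 lies highest, between 41.5 and 46.0 RPKM, and Nrg1, Areg and Egfr lie lowest.

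Among the ligands, betacellulin (Btc) and HB-EGF (Hbegf) had the most message. Btc stood at 17.0, 17.5, 14.6 and 15.1 RPKM, and Hbegf at 12.9, 10.9, 14.6 and 12.7 RPKM. Btc was above Hbegf beyond counting error in 3 of the 4 libraries, by 1.31-fold (1.21 to 1.42), 1.60-fold (1.48 to 1.73) and, in scratched cells labelled knockout, 1.19-fold (1.12 to 1.26). In the unscratched library labelled knockout the ratio was 0.996 (0.925 to 1.07), so the pair did not differ beyond counting error there. All 4 ratios hold for the lengths implied by the authors' RPKM. Tgfa, which encodes the prototypical EGFR ligand TGF-alpha, stood at 4.70, 4.61, 5.27 and 5.13 RPKM. Areg, which encodes amphiregulin, and Nrg1, which encodes the ERBB3 ligand neuregulin 1, were near the level of Egfr. Areg lay at 0.885, 0.973, 1.23 and 1.08 RPKM from 29, 33, 44 and 63 counts, and Nrg1 at 0.685, 1.31, 0.671 and 0.964 RPKM from 108, 214, 116 and 271 counts. Nrg1 was below Egfr beyond counting error in both unscratched libraries and above it in wild-type scratched cells, and their intervals overlapped in scratched cells labelled knockout. That order holds for the lengths implied by the authors' RPKM, which for Nrg1 was 5849 bases against 10351 annotated. By CPM, which takes no account of length, Nrg1 was below Egfr in every library. The Areg interval overlapped that of Egfr in every library. Of the inhibitors, Lrig1 at 22.6, 22.3, 23.2 and 22.2 RPKM ranked second of the 10 genes in every library. Its level lay above that of 75.4% to 76.6% of the genes in the authors' RPKM table. Errfi1 at 5.73, 6.50, 7.52 and 7.12 RPKM ranked sixth in every library, above 45.7% to 50.9% of those genes.

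Over 10 ligand genes of the family, including Egf, Ereg, Epgn, Nrg2 and Nrg4, the summed ligand message was 38.3, 37.4, 38.0 and 37.0 RPKM. Its total was nearly equal in the 4 libraries while its make-up differed. Btc gave 44.3%, 46.8%, 38.3% and 40.8% of it, and Hbegf 33.8%, 29.3%, 38.5% and 34.3%. The Btc share was lower in both libraries labelled knockout than in both wild-type libraries. Hbegf had a larger share in the library labelled knockout at each state, and a smaller share after the scratch in each genotype. Tgfa gave 12.3%, 12.3%, 13.9% and 13.9%, and Nrg1 gave 1.79%, 3.51%, 1.77% and 2.60%.

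**Figure D2:**
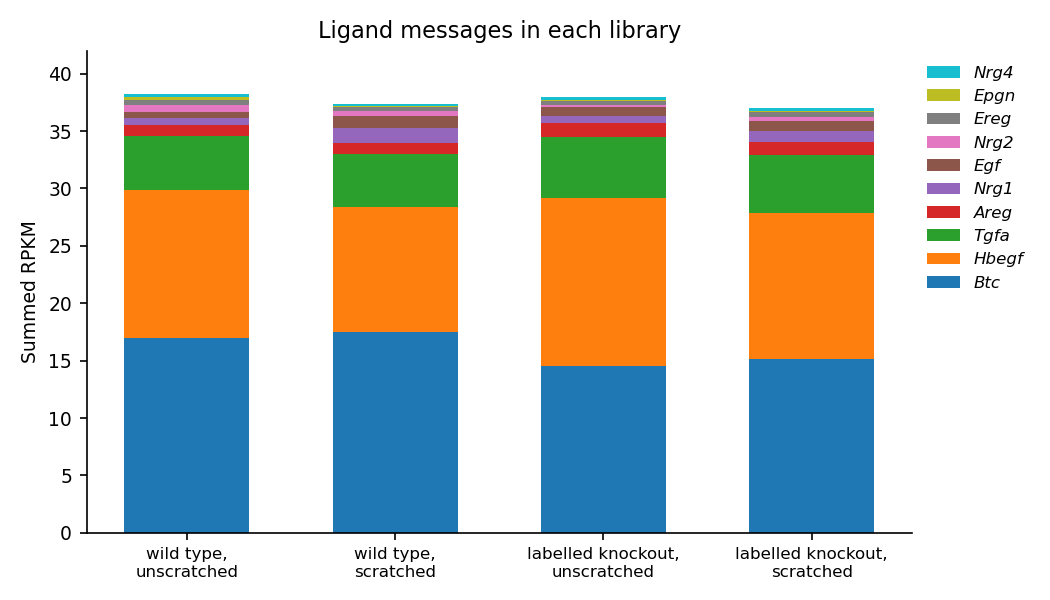
Summed RPKM of 10 ligand genes in each of the 4 libraries, with 1 colour per gene. The bars are close in height, between 37.0 and 38.3 RPKM, and Btc and Hbegf fill most of each one.

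Btc and Areg are neighbours in the genome. On mm10, in GENCODE M21, Btc spans chr5:91357261-91402994 on the minus strand and Areg spans chr5:91139599-91148432 on the plus strand. They belong to a ligand cluster, Epgn, Ereg, Areg and Btc, of 376 kb with gaps of 39.4, 46.0 and 209 kb and 0 other coding genes between its members. Within that cluster the messages were very unequal: per length, Btc exceeded Areg 19.2-fold (13.3 to 28.7), 18.0-fold (12.7 to 26.2), 11.9-fold (8.81 to 16.4) and 14.0-fold (10.9 to 18.3). Btc exceeded Ereg, the epiregulin gene, 38.5-fold (29.0 to 52.3) in wild-type unscratched cells, and Epgn, the epigen gene, had only 15, 6, 7 and 12 counts.

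Promoters are shown for Btc and Areg because these cluster neighbours differ so widely in level, and for Errfi1 because it is the inhibitor whose genotype difference was not the same before and after the scratch. The sequences are from RefSeq on GRCm38.p6, 250 bases before to 50 bases after a transcript start, written 5′ to 3′ on the gene's strand. RefSeq promoters could be matched for 7 of the 10 genes. Capitals mark matches, on either strand, to a cyclic AMP response element (TGACGTCA), a GC box (GGGCGG) and a TATA box (TATAAA). The AP-1 element (TGANTCA), which immediate early factors bind, was also searched and was found in 0 of the matched promoters of the 10 genes.
Btc, chr5:91402945-91403244, minus strand: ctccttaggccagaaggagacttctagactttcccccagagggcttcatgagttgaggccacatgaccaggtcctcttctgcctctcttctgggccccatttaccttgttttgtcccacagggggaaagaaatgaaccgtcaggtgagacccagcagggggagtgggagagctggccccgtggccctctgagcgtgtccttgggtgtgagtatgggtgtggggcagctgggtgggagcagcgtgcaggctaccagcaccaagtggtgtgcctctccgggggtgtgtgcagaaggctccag
Areg, chr5:91139349-91139648, plus strand: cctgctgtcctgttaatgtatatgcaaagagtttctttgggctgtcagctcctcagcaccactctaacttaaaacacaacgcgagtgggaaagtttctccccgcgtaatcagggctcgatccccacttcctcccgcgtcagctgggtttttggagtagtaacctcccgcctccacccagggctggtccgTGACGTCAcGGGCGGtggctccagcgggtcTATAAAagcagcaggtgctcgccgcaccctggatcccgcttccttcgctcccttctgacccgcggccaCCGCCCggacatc
Errfi1, chr4:150854820-150855119, plus strand: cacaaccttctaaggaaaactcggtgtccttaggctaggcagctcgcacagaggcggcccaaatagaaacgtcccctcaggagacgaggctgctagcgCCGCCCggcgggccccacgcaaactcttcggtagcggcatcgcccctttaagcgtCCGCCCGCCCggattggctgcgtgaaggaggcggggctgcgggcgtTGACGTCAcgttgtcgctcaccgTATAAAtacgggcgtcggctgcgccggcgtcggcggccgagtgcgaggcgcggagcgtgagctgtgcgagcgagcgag
The Areg promoter held the cyclic AMP element with its first base at -61 and a TATA box at -31, counted from the start site. The Errfi1 promoter held the same pair at -51 and -28. The Btc promoter held none of the searched motifs. Of 32851 RefSeq promoters of this length, 1.79% held the cyclic AMP element, 13.6% the TATA box, 35.7% the GC box and 7.81% the AP-1 element. These matches describe letters in a window and say nothing of binding in these cells. A second RefSeq start of Errfi1, whose window begins at 150853546 on chromosome 4, held none of the searched motifs.

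The first comparison asked how the family's messages differed between cells labelled Lingo1 KO and wild-type cells. None of the 10 genes differed 2-fold in either state, where 2.24% of all tested genes did so in unscratched cells and 1.90% in scratched cells. Errfi1 in unscratched cells was the 1 member at least 1.3-fold apart there (background 13.0% of tested genes), and Nrg1 the 1 member in scratched cells (background 9.90%). Beyond counting error alone, 5 of the 10 genes differed in unscratched cells (background 51.0%) and 4 in scratched cells (background 47.6%). The member shares were therefore near or below those of all genes.

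When genotype and scratch were fitted together, without an interaction, by edgeR's quasi-likelihood test, 3 of the 10 members passed an adjusted p of 0.05 for genotype, beside 25.8% of all tested genes. The median log2 genotype difference was 0.05 over the 10 members and 0.00 over all tested genes. The fit leaves 1 residual degree of freedom, and its p-values compare these libraries only.

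Of the ligand genes, Btc fell and Hbegf rose in the libraries labelled knockout. Btc stood at 68.0, 70.4, 58.6 and 61.1 CPM, so both wild-type libraries were above both libraries labelled knockout. The ratio of labelled knockout to wild type was 0.862 (0.807 to 0.921) unscratched and 0.868 (0.819 to 0.919) scratched, and the fitted log2 difference was -0.21 ± 0.05 (SE, edgeR adjusted p = 0.00327). Hbegf stood at 37.2, 31.6, 42.2 and 36.9 CPM, and within each state the library labelled knockout was the higher. The labelled knockout had 1.13-fold (1.04 to 1.23) the wild-type level unscratched and 1.17-fold (1.08 to 1.27) scratched, with a fitted log2 difference of 0.20 ± 0.07 (edgeR adjusted p = 0.0273). The ligand with the most message in wild type and the one next to it thus moved in opposite directions. Tgfa, at 21.2, 20.9, 23.8 and 23.3 CPM, had a ratio of 1.13 (1.01 to 1.26) unscratched and 1.12 (1.01 to 1.24) scratched, and did not pass the fit (0.16 ± 0.08, edgeR adjusted p = 0.156). Areg, at 1.07, 1.18, 1.49 and 1.32 CPM, was not distinguishable at this depth, with a ratio of 1.39 (0.850 to 2.30) unscratched.

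Errfi1, the feedback inhibitor of the EGFR kinase, rose in the libraries labelled knockout. It stood at 17.3, 19.8, 22.8 and 21.8 CPM, and the wild-type unscratched library was the lowest. The ratio was 1.32 (1.17 to 1.49) unscratched and 1.10 (0.991 to 1.22) scratched, the second of which includes 1. The fitted log2 difference was 0.26 ± 0.09 (edgeR adjusted p = 0.0302). That fit has no interaction and gives 1 genotype value for both states. For this gene the scratched ratio over the unscratched was 0.834 (0.714 to 0.976), so they differed beyond counting error. Lrig1, the other inhibitor, stood at 111, 111, 114 and 110 CPM, and its ratios of 1.03 (0.979 to 1.08) and 0.995 (0.952 to 1.04) bound any difference between these libraries to under 10%.

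The receptor messages hardly differed by genotype. Erbb2 stood at 229, 215, 220 and 209 CPM, with ratios of 0.960 (0.927 to 0.994) and 0.971 (0.940 to 1.00), and did not pass the fit (-0.05 ± 0.06, edgeR adjusted p = 0.565). Erbb3 stood at 73.3, 70.0, 75.8 and 70.3 CPM, with ratios of 1.03 (0.973 to 1.10) and 1.00 (0.949 to 1.06). Egfr stood at 9.74, 9.50, 10.5 and 9.92 CPM, with ratios of 1.08 (0.910 to 1.27) and 1.04 (0.896 to 1.22). The intervals of Erbb3 and Egfr include 1 in both states, so any difference lay within counting error.

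The genotype calls depended on the test. With DESeq2's Wald test none of the 10 members passed (adjusted p of 0.210 for Btc, 0.433 for Hbegf and 0.430 for Errfi1), and 1 member had an unadjusted p under 0.05. In the edgeR fit without the scratch term none passed either (adjusted p of 0.0674 for Btc, 0.256 for Hbegf and 0.119 for Errfi1), and 2 members had an unadjusted p under 0.05. With limma on log2 RPKM, Errfi1 missed the threshold at pseudocounts of 0.1 and 1 (adjusted p of 0.0599 and 0.0678) and Hbegf at a pseudocount of 1 (adjusted p of 0.0533). The directions of the 3 genes were the same in every alternative run.

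**Figure D3:**
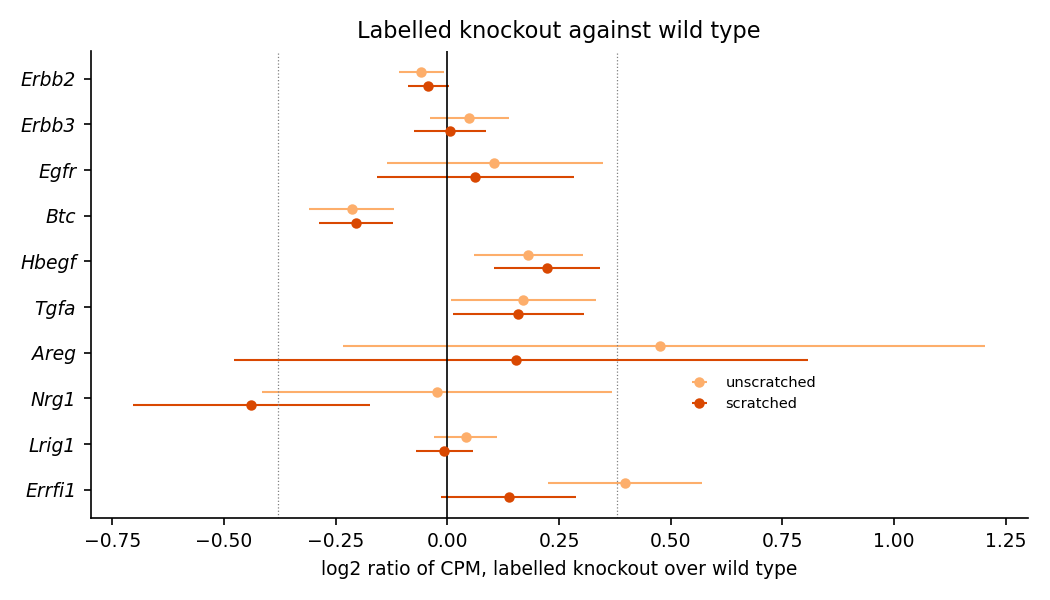
Ratio of CPM, labelled knockout over wild type (log2), for each gene in unscratched and scratched cells. Bars are 95% counting intervals and dotted lines mark 1.3-fold. Btc lies left of 0 and Hbegf right of 0 in both states, and Errfi1 lies farther right in unscratched cells.

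The second comparison asked how the messages differed at 24 hours after the scratch. It shares libraries with the first, so the 2 sets of values are not independent. No member differed 2-fold in either genotype, beside 0.858% of all tested genes in wild type and 0.267% in cells labelled knockout. Nrg1 was the 1 member at least 1.3-fold apart in each genotype (background 4.79% in wild type and 2.61% in labelled knockout). Beyond counting error, 4 of the 10 genes differed in wild type (background 37.2%) and 4 in labelled knockout (background 32.0%). In the additive edgeR fit 1 member passed for scratch, beside 2.83% of all tested genes (350 genes, 177 higher and 173 lower). With total-count scaling that fit called 322 genes, 128 higher and 194 lower.

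Nrg1, the neuregulin that ERBB3 binds, rose after the scratch. It stood at 3.98, 7.67, 3.92 and 5.66 CPM, and both scratched libraries were above both unscratched ones. The ratio of scratched to unscratched was 1.93 (1.52 to 2.45) in wild type and 1.44 (1.16 to 1.81) in cells labelled knockout, and the fitted log2 difference was 0.73 ± 0.14 (edgeR adjusted p = 0.00366). The unscratched libraries did not differ beyond counting error, with a genotype ratio of 0.984 (0.750 to 1.29), whereas after the scratch the wild type was 1.36-fold (1.13 to 1.63) the labelled knockout. The scratch difference did not pass with DESeq2's Wald test (adjusted p = 0.750), in the edgeR fit without genotype (1.00) or with limma on log2 RPKM with a pseudocount of 0.1 (0.121). Nrg1 spans chr8:31814551-32884029 on mm10 (minus strand). Its exons share 482 bases with Gm26578, a long noncoding RNA gene on the other strand that had 21, 17, 13 and 35 counts, and the strand setting of the counting is not given in the sources used here.

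Nrg1 also had the widest range of the 10 members over the 4 libraries among those with a mean of at least 5 CPM, 0.96 on the log2 scale, wider than that of 95.6% of all tested genes. Lrig1 had the narrowest, 0.06, wider than that of 2.13% of tested genes. Of 10302 genes with a mean of at least 5 CPM, the 5 whose centred log2 CPM lay nearest to that of Nrg1 were Sprr1a, Asns, Yrdc, Mthfd2 and Chac1, at distances of 0.18, 0.28, 0.32, 0.33 and 0.36 on the log2 scale. Sprr1a, a cornified envelope gene of stressed epithelium, stood at 14.2, 26.7, 15.5 and 23.0 CPM. Asns encodes asparagine synthetase, Mthfd2 an enzyme of mitochondrial folate metabolism, and Chac1 an enzyme that degrades glutathione. Each likeness rests on 4 libraries and is a description.

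The other ligands and both inhibitors did not pass for scratch. Hbegf was lower after the scratch in both genotypes, with ratios of 0.849 (0.775 to 0.931) and 0.874 (0.812 to 0.940) that exclude 1, and missed the threshold of the fit (-0.21 ± 0.07, edgeR adjusted p = 0.0864). Btc had ratios of 1.04 (0.972 to 1.11) and 1.04 (0.983 to 1.11), and Tgfa of 0.987 (0.878 to 1.11) and 0.979 (0.890 to 1.08). All 4 of those intervals include 1. Areg had ratios of 1.11 (0.651 to 1.89) and 0.885 (0.592 to 1.33), with intervals far wider than those of Btc and Tgfa.

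Among the receptors, Erbb2 had ratios of 0.939 (0.906 to 0.973) and 0.949 (0.920 to 0.980) after the scratch. Erbb3 had ratios of 0.955 (0.897 to 1.02) and 0.927 (0.878 to 0.978). Egfr had ratios of 0.975 (0.819 to 1.16) and 0.947 (0.819 to 1.10). All 6 receptor ratios were below 1 by less than 10%, and none of these genes passed the fit. The median log2 scratch difference in that fit was -0.04 over the 10 members and 0.01 over all tested genes.

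**Figure D4:**
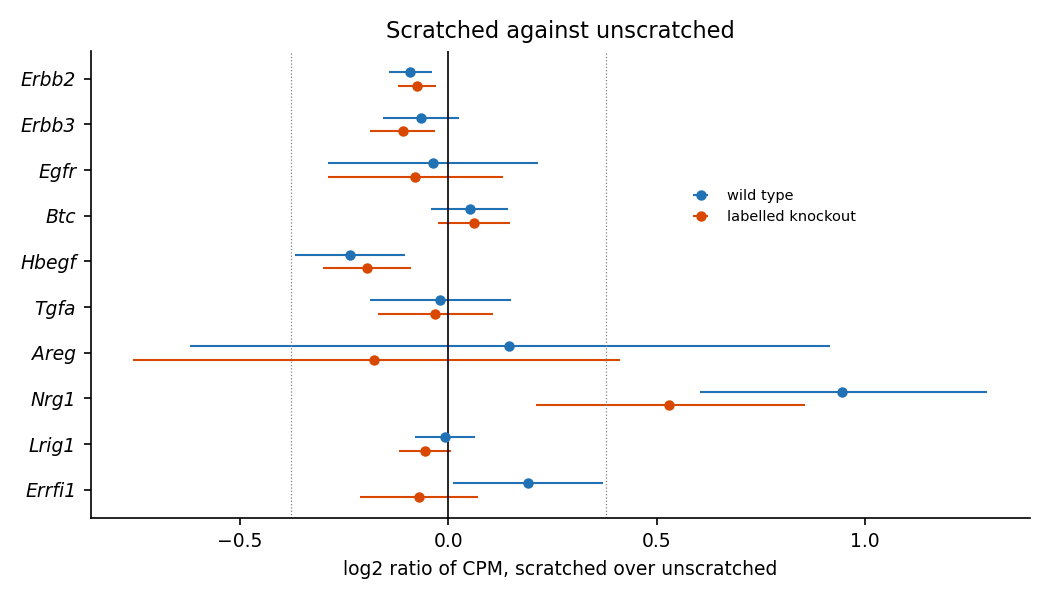
Ratio of CPM, scratched over unscratched (log2), for each gene in wild type and in cells labelled knockout. Bars are 95% counting intervals and dotted lines mark 1.3-fold. Nrg1 lies past the right dotted line in both genotypes, and the Hbegf intervals lie left of 0.

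The third comparison asked whether the scratch difference itself differed between genotypes, as a ratio of ratios. No member differed at least 2-fold (background 0.915%) or 1.3-fold (background 4.02%), and 1 of the 10, Errfi1, differed beyond counting error (background 26.8%). The Errfi1 ratio of scratched to unscratched was 1.14 (1.01 to 1.29) in wild type and 0.952 (0.864 to 1.05) in cells labelled knockout, a ratio of ratios of 0.834 (0.714 to 0.976). For Nrg1 the ratio of ratios was 0.750 (0.546 to 1.03), which includes 1, so the larger wild-type value was not resolved from the other at this depth. The remaining 8 members had intervals that include 1.

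The other ligand genes of the family were scarce. Egf stood at 2.32, 4.98, 3.55 and 4.24 CPM and was lowest in wild-type unscratched cells. Its ratio of labelled knockout to wild type was 1.53 (1.11 to 2.12) unscratched and 0.851 (0.682 to 1.06) scratched. The Egf ratio after the scratch was 2.14 (1.58 to 2.93) in wild type and 1.19 (0.939 to 1.53) in labelled knockout. The ratio of ratios was 0.557 (0.381 to 0.814), which excludes 1 and is past 1.3-fold. For scratch, Egf missed the threshold of the fit (0.62 ± 0.18, edgeR adjusted p = 0.0556). Nrg2 stood at 1.77, 1.22, 0.473 and 1.07 CPM, from 48, 34, 14 and 51 counts. The low unscratched library labelled knockout set its ratios, 0.267 (0.136 to 0.493) against wild type and 2.25 (1.23 to 4.40) for the scratch in labelled knockout. Ereg stood at 1.81, 1.40, 1.49 and 1.69 CPM. Nrg4 had 15, 9, 16 and 26 counts, Nrg3 had 0 in every library, and Erbb4, Epgn, Nrg3 and Nrg4 were not tested.

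Ligand release and receptor trafficking genes were examined as lists. Of 13 ligand processing genes, 12 were tested and 2 rose and 2 fell with genotype, none with scratch. Adam15, a membrane protease of the ADAM family, fell, at 383, 354, 302 and 292 CPM (log2 difference -0.31 ± 0.06). Adam19, an ADAM protease known to process neuregulin, had 0 CPM in wild-type unscratched cells and 0.108, 1.35 and 0.814 CPM in the others. Its ratio in unscratched cells was 12.2 against a floor of 3 counts for the wild type, and the exact counting interval of 40 against 0 counts starts at 9.48. In scratched cells the labelled knockout was 7.57-fold (2.41 to 38.3) the wild type. Adam19 passed the filter of 1 CPM through the unscratched library labelled knockout alone, so a genotype difference was built into its being tested. Cnih1, a cargo receptor related to the fly protein that exports EGFR ligands, rose by 0.19 ± 0.05 on the log2 scale. Adam17, the main sheddase of several of these ligands, stood at 188, 187, 187 and 182 CPM.

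Of 35 adaptor and effector genes, 34 were tested, with 4 up and 2 down for genotype and 1 down for scratch. Eps8, a substrate of the EGFR kinase that links it to actin, rose most, at 4.65, 4.52, 16.1 and 13.7 CPM. Both libraries labelled knockout were above both wild-type libraries, by 3.46-fold (2.84 to 4.25) unscratched and 3.03-fold (2.50 to 3.70) scratched. Eps15, an endocytic adaptor of the receptor, fell (-0.32 ± 0.06), Src, the non-receptor tyrosine kinase, rose (0.23 ± 0.06), and Braf, a kinase of the MAP kinase cascade, fell after the scratch (-0.20 ± 0.05, edgeR adjusted p = 0.0368).

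Of 20 negative regulators, 19 were tested, with 4 up and 3 down for genotype and 1 down for scratch. The tyrosine phosphatase genes Ptprj (-0.24 ± 0.06) and Ptprk (-0.22 ± 0.05) fell with genotype, whereas Ptpn1, another tyrosine phosphatase gene of the list, rose (0.18 ± 0.06) and was named after its value was seen. Socs5, an adaptor that promotes EGFR degradation, also rose (0.28 ± 0.07). Tob1, an antiproliferative protein, fell after the scratch (-0.22 ± 0.06, edgeR adjusted p = 0.0443). Tob1 also rose with genotype (0.22 ± 0.06), with ratios of 1.13 (1.05 to 1.22) unscratched and 1.19 (1.11 to 1.28) scratched. The median log2 genotype difference was -0.05 for processing genes, -0.01 for adaptors and 0.05 for negative regulators, beside 0.00 for all tested genes. The shares of tested genes called were 4 of 12, 6 of 34 and 7 of 19, beside the background of 25.8%. The 4 of 12 include Adam19, which passed the filter through the unscratched library labelled knockout alone. Adam15, Eps15 and Eps8 also passed under all 8 alternatives of the fit. Adam19, Cnih1, Src, Ptprk, Ptprj and Socs5 did not pass with DESeq2's Wald test for genotype, nor Braf and Tob1 for scratch. Cnih1, Src, Ptprk and Socs5 also missed the threshold without the scratch term, and Adam19 and Ptprj with limma at a pseudocount of 1. Braf and Tob1 also missed it without the genotype term and with limma at both pseudocounts.

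**Figure D5:**
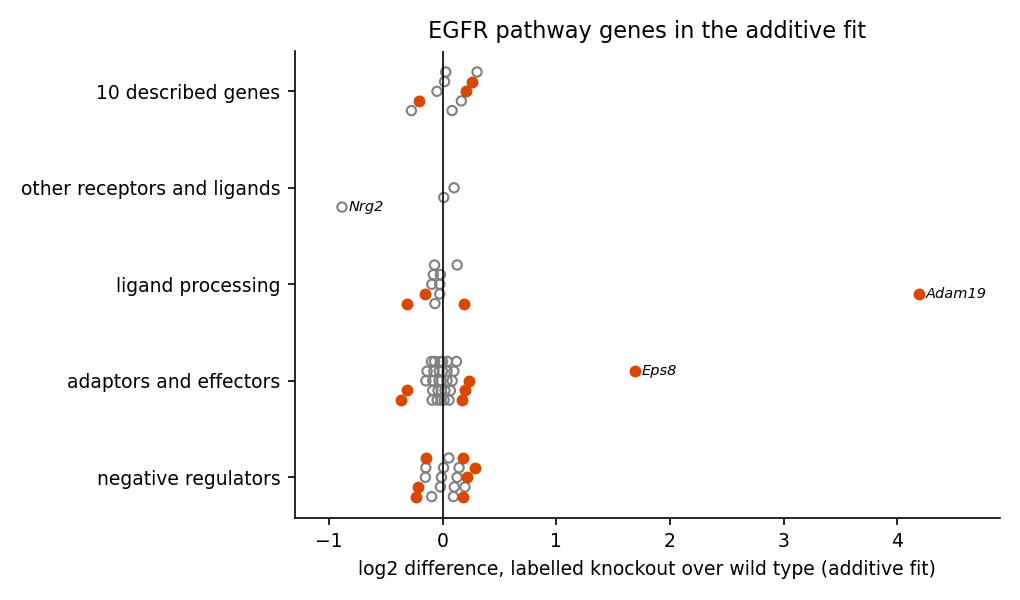
Log2 genotype difference in the additive edgeR fit for each tested gene of 5 lists. Filled points passed an adjusted p of 0.05 and open points did not. Most genes lie within 0.4 of 0, apart from Adam19 (4.19, a fitted value with 0 counts in 1 library), Eps8 (1.69) and Nrg2 (-0.89, open).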

How the data were processed

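RNA was taken from 4 cultures and made into stranded mRNA libraries, per the labels' protocols. The authors deposited raw read counts for 46078 genes and RPKM values for 14844 of them, 161 without values. The submitters' processing notes name the build mm10 and the tools STAR 2.7.9a, Trimmomatic 0.39, edgeR 3.32.1 and HTSeq 0.11.3. Overlapping genes are uncertain, because the strand setting of the counting is not given in the sources used here.

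Counts were scaled by TMM in edgeR 4.0.16, and genes with at least 1 CPM in at least 1 library were tested. Ratios of CPM carry exact 95% Clopper-Pearson intervals. Calls at 2-fold and 1.3-fold used a prior count of 2 and an interval excluding 1. The ratio of ratios carries a normal counting interval. Genotype and scratch were also fitted as additive terms by edgeR's quasi-likelihood F-test (biological coefficient of variation 5.49%, 24.2 prior and 1 residual degrees of freedom), with Benjamini-Hochberg adjustment over all tested genes. With 1 library per condition, the fit takes its spread from how far the scratch difference varies with genotype. That spread is shared across tested genes through the prior degrees of freedom. It holds no spread between cultures of the same condition. The biological coefficient of variation, edgeR's name for the fitted spread, therefore rests on no replicate. Scripts were tested on simulated data. Alternatives used DESeq2 1.42.0, limma 3.58.1 on log2 RPKM, total counts, other filters, prior counts and pseudocounts. All 10 members and the other family genes were named, with up to 3 genes per pathway list and term by smallest p. Members and lists were chosen with earlier results of these data known. Gene positions are from GENCODE M21 on mm10.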

Additional observations from a re-analysis of the deposited data

Results flagged for a closer look

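The Errfi1 values before and after the scratch lay in opposite order in the 2 genotypes, with a log2 difference between the scratch ratios of -0.26. The wild type went from 17.3 to 19.8 CPM and the labelled knockout from 22.8 to 21.8 CPM, where the ratio of 0.952 (0.864 to 1.05) includes 1, so no fall was resolved. Nrg2 did so as well, with a log2 difference of 1.71, from 1.77 to 1.22 CPM in wild type and from 0.473 to 1.07 CPM in labelled knockout, and its wild-type ratio of 0.688 (0.430 to 1.09) includes 1. For Nrg2 the ratio of ratios was 3.27 (95% counting interval 1.57 to 6.83), and it rests on 14 counts in the unscratched library labelled knockout. Neither difference was tested across cultures, since each condition has 1 library.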

How the results depend on the processing

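No paired analysis was possible because each condition has 1 library and the labels give no replicate numbers, and no library could be left out of a comparison of 2 libraries. For the 10 members, 344 of 345 alternative fold values stayed within the counting interval of the reported value; the other was Nrg1 after the scratch in wild type (log2 0.46 from RPKM with a pseudocount of 1). In the additive fit 145 of 158 member values kept their side of the threshold and their direction, 13 lost the call and 0 reversed. Members called for genotype (3) numbered 0 with DESeq2, 0 without the scratch term and 1 with limma at a pseudocount of 1. Members called for scratch (1) numbered 0 with DESeq2, 0 without genotype, and 0 with limma at both pseudocounts. At 1.3-fold, RPKM with a pseudocount of 1 left 0 members in unscratched cells, 0 in scratched cells and 0 for the scratch in labelled knockout. Over all genes, genotype calls (3190) were 968 with DESeq2 and 1226 without scratch. Scratch calls (350) were 36 with DESeq2, 46 and 33 with limma at pseudocounts of 0.1 and 1, and 0 in the edgeR fit without genotype, where 268 genes had an unadjusted p under 0.05. Counts of genes at 2-fold follow in the order genotype unscratched, genotype scratched, scratch in wild type, scratch in labelled knockout and ratio of ratios. They were 277, 234, 106, 33 and 113 as reported, 611, 535, 263, 226 and 304 without a filter, 86, 85, 21, 6 and 19 with at least 5 CPM, and 41, 41, 23, 6 and 27 from RPKM with a pseudocount of 1. RPKM with a pseudocount of 0.1 gave 155, 70, 15 and 73 for the last 4. At 1.3-fold (1607, 1223, 591, 322 and 496) the values were 926, 608, 270, 101 and 264 from RPKM with a pseudocount of 1, 756, 313, 138 and 317 for the last 4 with at least 5 CPM, and 529 for scratch in labelled knockout without a filter. Removing low genes or adding a pseudocount leaves fewer genes of large ratio by construction, and the cause of the other differences was not tested. Areg has no value at 5 CPM. Counts under 100 in every library limit Areg, Nrg2, Adam19, Ereg, Epgn, Nrg4 and Erbb4.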
